A study of Mus musculus with 8 samples.

Results

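The cell cycle and proliferation genes described here were 34 genes that drive or mark cell division, chosen by name from a list that covers cyclins, cyclin-dependent kinases, their inhibitors, DNA replication and mitosis. All 34 were found by gene symbol among the 21759 genes measured. The tissue was brown adipose tissue, the fat depot that makes heat, of male C57BL/6 mice, a common inbred strain. It was studied in 2 groups of 4 arrays each: HFD, high-fat diet, and NCD, the comparison diet, which the labels do not spell out. The groups shared sex, strain and tissue, and the labels name no other treatment or allele. The sources used here give neither the age of the mice nor the length of feeding. Nothing says whether each array came from a separate animal, so the p-values reflect only how far these samples differ among themselves, which may be technical. Each array, an Affymetrix Mouse Gene 1.0 ST array, gave 1 normalized log2 intensity for each transcript cluster, a set of probes along 1 annotated transcript. Ucp1, the uncoupling protein that defines brown adipocytes, had a mean of 12.90 ± 0.05 (SD, n = 4) under NCD, and under HFD one of 12.85 ± 0.05 (SD, n = 4).

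A cell enters the division cycle when D cyclins with Cdk4 or Cdk6, and then E cyclins with Cdk2, phosphorylate the retinoblastoma protein and free E2F factors, which switch on genes for DNA replication. B cyclins with Cdk1 then drive mitosis, and the Cip/Kip and INK4 proteins hold the kinases in check. Mature brown adipocytes are largely post-mitotic, while their progenitors and the endothelial and immune cells of the depot can divide. In whole tissue, fewer cells of a type and less RNA per cell cannot be told apart.

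None of the 34 genes passed the test between diets. The largest differences were those of the inhibitor Cdkn1b, 1.24-fold higher in HFD, and of the kinase Cdk4, which differed by -0.265 on the log2 scale and by -0.14 without NCD 3. The smallest adjusted p was 0.566, for Cdkn1b, from limma over all genes at a threshold of 0.05. Over all genes 0.142% passed, 0.00919% higher in HFD and 0.133% lower. At an unadjusted p under 0.05 there was 1 gene of the 34, against 7.24% of all genes. The methods' t-test called 4 of the 34 before adjustment at that threshold, against 6.96% of all genes. After adjustment it called 0 of the 34 and 0 of all genes. The median difference over the 34 genes was 0.03, against -0.01 over all genes, and 21 of the 34 had a higher mean in HFD, against 46.7% of all genes.

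In the limma fit each difference was bounded more tightly than 1.5-fold. The 95% interval of the difference lay within 0.585 of 0 on the log2 scale, which is 1.5-fold in either direction, for all 34 genes and for 91.6% of all genes. The widest reach was from -0.55 (Cdk4) to 0.58 (Bub1). These intervals are not adjusted for the number of genes. The standard error of a difference ran from 0.106 (E2f1) to 0.189 (Top2a), with a median of 0.132 against 0.127 over all genes.

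**Figure D1:**
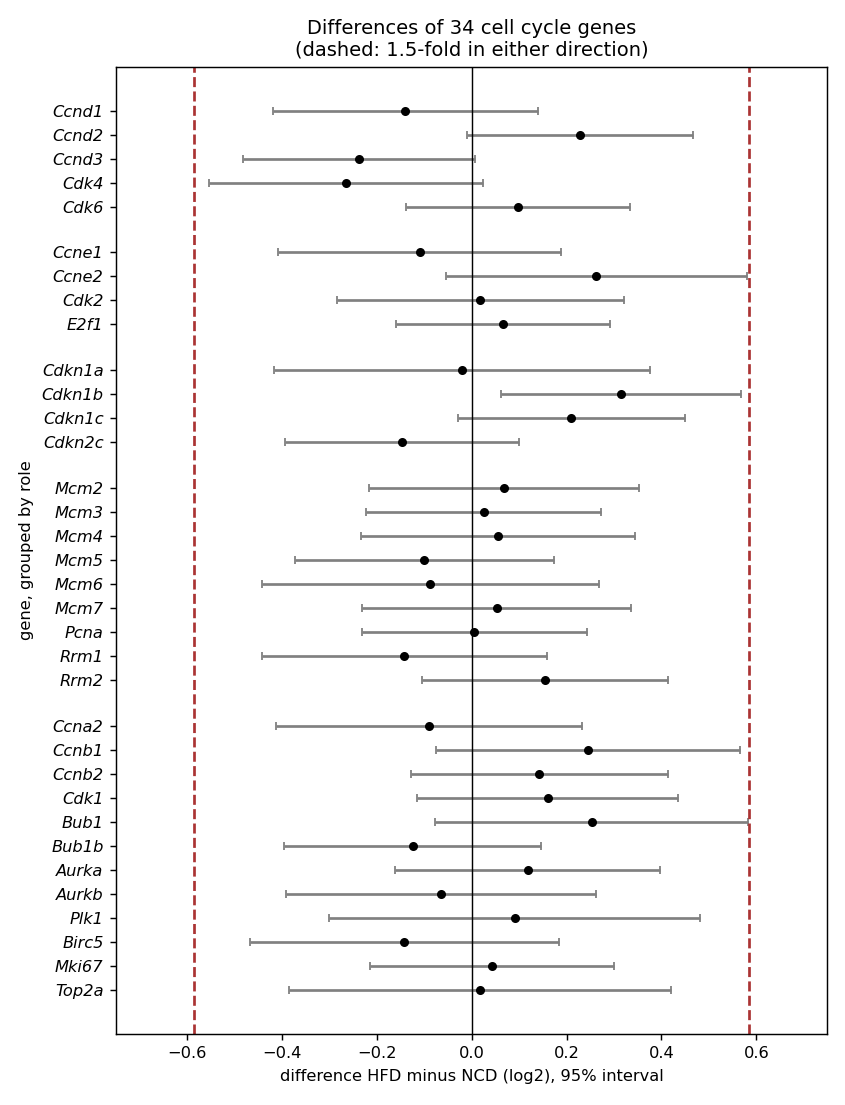
Difference HFD minus NCD on the log2 scale (horizontal axis) for each of the 34 genes (vertical axis, grouped by role). Points are limma estimates from 4 arrays per group, bars are 95% intervals, and dashed lines mark 1.5-fold; every interval lies between the dashed lines, and only that of Cdkn1b leaves out 0.

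Whether a gene was measured above the level of unexpressed genes split the list by role. The 1119 olfactory receptor genes, which serve smell and stand in for genes not used in fat, had a 95th percentile of 6.46, called the background level below. It is a rough level, since probes of different genes differ in brightness. The mean over 8 arrays lay above it for 11 of the 34 genes: Ccnd1, Ccnd2, Ccnd3, Cdk4, Cdk6, Cdkn1a, Cdkn1b, Cdkn1c, Cdkn2c, Pcna and Rrm1. The other 23, or 67.6%, did not exceed it, against 64.9% of all genes. These 23 held all 12 mitosis genes and all 4 of the E cyclin group. The split depends on the percentile chosen. At the 90th percentile, 6.02, the means of Ccne1, Ccne2, Aurkb and Mcm6 lay above the line, and 19 of the 34 genes did not exceed it. All 34 means lay above the olfactory median of 4.50. A change in a gene at the background level may be understated, so a narrow interval there bounds the array value and not the transcript.

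**Figure D2:**
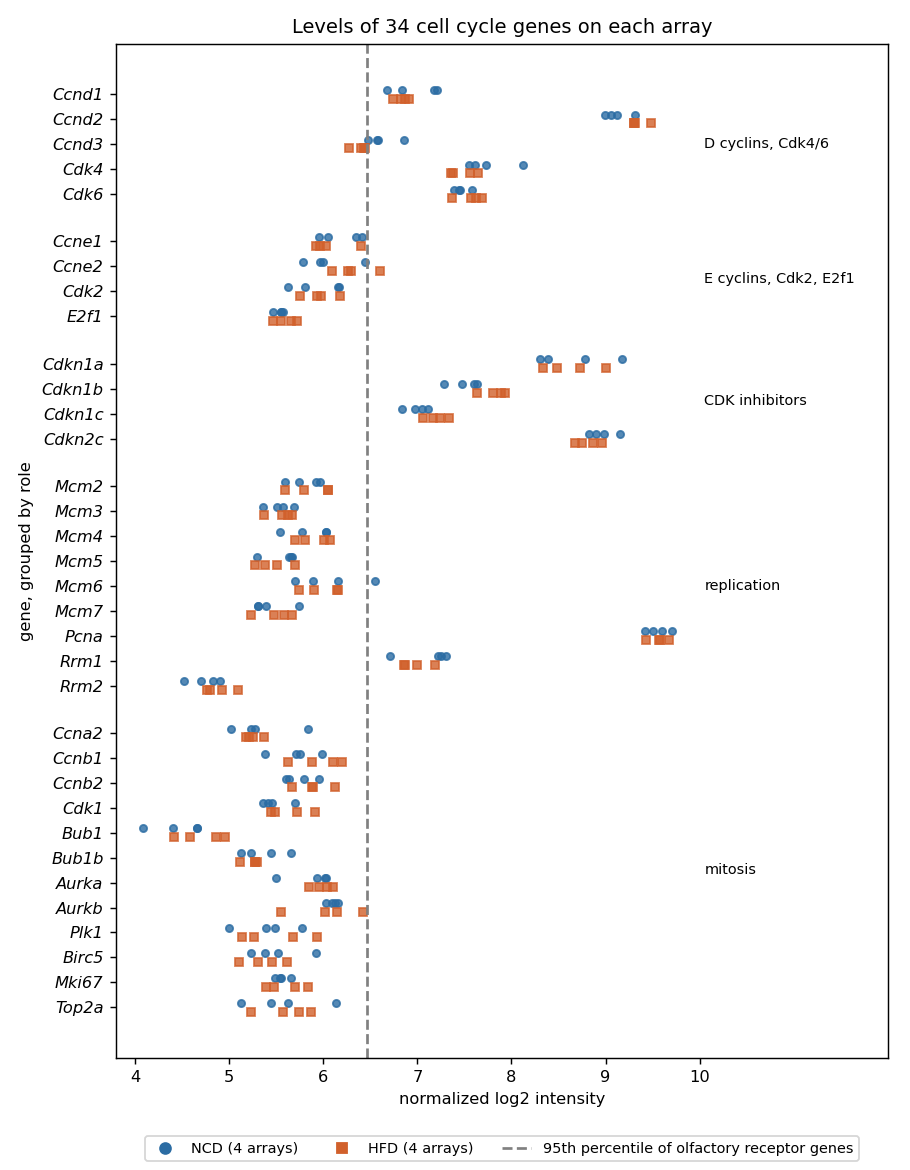
Normalized log2 intensity (horizontal axis) of the 34 genes (vertical axis, grouped by role) on each of the 4 NCD arrays (circles) and 4 HFD arrays (squares). The dashed line is the 95th percentile of olfactory receptor genes, 6.46; the D cyclins with their kinases and the inhibitors have means to its right, and every value of the mitosis genes lies to its left.

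The D cyclins bind Cdk4 and Cdk6 and tie the start of the cycle to growth signals. Ccnd3 stood at 6.86, 6.57, 6.58 and 6.48 on NCD 1 to 4 and at 6.40, 6.43, 6.44 and 6.27 on HFD 1 to 4. It was the only one of the 34 genes whose groups did not overlap, a count of 1 against 3.83% of all genes, 1.33% higher in HFD and 2.5% lower. All 4 HFD values were under the background level and all 4 NCD values above it, but several lay close to it, such as 6.44 and 6.48. Every value was above the 90th percentile level of 6.02. The difference was -0.24 ± 0.11 (SE, adjusted p = 0.699).

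Ccnd2 went the other way on its brightest cluster, at 9.06, 9.31, 9.12 and 8.99 on the NCD arrays and 9.30, 9.30, 9.48 and 9.31 on the HFD arrays. The groups met at 9.31 on NCD 2, above the lowest HFD values. The difference was 0.23 ± 0.11 (SE, adjusted p = 0.701). This cluster spans 447 bases of chromosome 6, from 127232081 to 127232527 in the coordinates of the file, for which the sources used here name no genome build. It lies 131014 bases from the longer cluster of the same symbol, from 127075726 to 127101066. Both are on the minus strand, so the short cluster is upstream of the longer one. On the longer cluster the NCD arrays read 6.92, 6.99, 6.97 and 6.68 and the HFD arrays 6.95, 7.04, 6.77 and 6.70. There the difference was -0.03 ± 0.12 (SE, adjusted p = 0.983 over all clusters). The higher Ccnd2 value in HFD was thus seen only on the short, distant cluster.

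Ccnd1, the D cyclin most often tied to growth factor signals, read 6.68, 7.18, 7.21 and 6.84 on the NCD arrays and 6.91, 6.83, 6.74 and 6.87 on the HFD arrays. NCD 2 and NCD 3 were the highest, while NCD 1 was the lowest of all. The difference was -0.14 ± 0.13 (SE, adjusted p = 0.868), and it stood at 0.08 without NCD 2 and NCD 3. Cdk4, the kinase partner of these cyclins, read 7.61, 7.73, 8.12 and 7.55 on the NCD arrays and 7.38, 7.56, 7.36 and 7.65 on the HFD arrays. NCD 3 was the highest, and the other arrays overlapped. The difference was -0.265 ± 0.14 (SE, adjusted p = 0.718), and without NCD 3 it was -0.14. Cdk6, the other partner, ranged over all 8 arrays by 0.32 and had a difference of 0.10 (adjusted p = 0.898).

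The E cyclins act with Cdk2 at the entry into DNA synthesis. Ccne2 read 5.97, 6.44, 5.78 and 6.00 on the NCD arrays and 6.09, 6.29, 6.26 and 6.60 on the HFD arrays. Its value on HFD 4 was its only one above the background level, and the groups overlapped through NCD 2. The difference was 0.26 ± 0.15 (SE, adjusted p = 0.769), and it was 0.17 without either NCD 3 or HFD 4. Ccne1 differed by -0.11, Cdk2 by 0.02 and E2f1, the activating transcription factor of replication genes, by 0.07. E2f1 had the narrowest spread of the 34 genes, with 0.25 between its highest and lowest array.

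The inhibitors Cdkn1a, Cdkn1b and Cdkn1c, which encode the proteins p21, p27 and p57, bind cyclin and kinase complexes, and Cdkn2c encodes an INK4 protein that blocks Cdk4 and Cdk6. Cdkn1b read 7.60, 7.63, 7.28 and 7.48 on the NCD arrays and 7.63, 7.80, 7.89 and 7.93 on the HFD arrays. The groups touched at 7.63, on NCD 2 and HFD 1, and the other HFD arrays lay above all NCD arrays. The NCD mean was 7.50 ± 0.16 (SD, n = 4) and the HFD mean 7.81 ± 0.13 (SD, n = 4), a difference of 0.315 ± 0.12 (SE, unadjusted p = 0.0182, adjusted p = 0.566). Without NCD 3 no gene of the 34 had an unadjusted p under 0.05.

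The clusters of Cdkn1b disagreed. The values above come from a cluster of 162 bases on chromosome 6, from 134875352 to 134875513, which starts 1020 bases past the end of a cluster of 3897 bases (134870435 to 134874331). The longer cluster read 6.03, 6.01, 6.06 and 6.06 on the NCD arrays and 6.02, 5.92, 6.28 and 5.86 on the HFD arrays. HFD 3 was its highest array and HFD 4 its lowest, and the difference was -0.02 ± 0.11 (SE, adjusted p = 0.986 over all clusters). Its mean lay under the background level, which the short cluster exceeded on all 8 arrays. Which parts of the transcript the probes match was not used here.

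**Figure D3:**
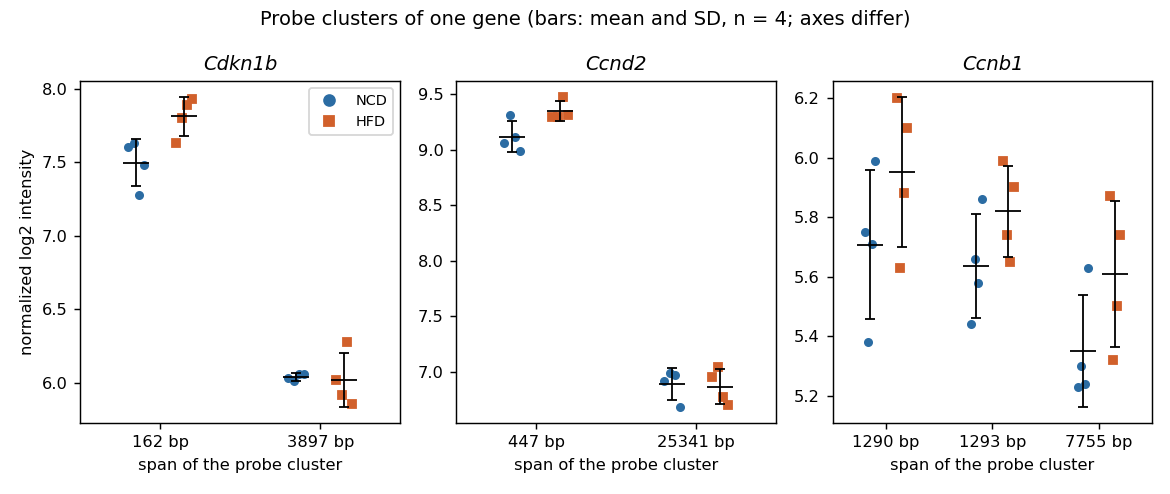
Normalized log2 intensity (vertical axis, a different range in each panel) of the separate probe clusters of Cdkn1b, Ccnd2 and Ccnb1, with the span of each cluster on the horizontal axis. Points are single arrays, bars the mean and SD of 4 arrays; for Cdkn1b and Ccnd2 the HFD mean exceeds the NCD mean on the short cluster only, and for Ccnb1 on all 3.

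Cdkn1c, an imprinted inhibitor, read 7.11, 7.05, 6.97 and 6.84 on the NCD arrays and 7.06, 7.17, 7.24 and 7.34 on the HFD arrays. HFD 1 fell among the NCD values and the other HFD arrays lay above them. The difference was 0.21 ± 0.11 (SE, adjusted p = 0.738). Cdkn1a, a target of p53, read 8.39, 8.30, 9.17 and 8.78 on the NCD arrays and 8.73, 8.34, 8.48 and 9.01 on the HFD arrays. Both groups spanned nearly the same values, with the highest on NCD 3 and HFD 4. The difference was -0.02 ± 0.19 (SE, adjusted p = 0.991), and its standard deviation within groups, 0.351, was above that of 96.9% of all genes. Cdkn2c differed by -0.15 (adjusted p = 0.845).

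Replication genes included the helicase subunits Mcm2 to Mcm7, the sliding clamp Pcna and the subunits of ribonucleotide reductase, Rrm1 and Rrm2, which make deoxynucleotides. Of these 9 genes 0 passed and 0 had an unadjusted p under 0.05, with differences from -0.14 (Rrm1) to 0.155 (Rrm2) and a median of 0.025. The 6 helicase genes differed by -0.10 to 0.07, with means over 8 arrays from 5.46 (Mcm7) to 6.03 (Mcm6), all under the background level. Pcna, which also serves DNA repair, stood well above it, from 9.42 to 9.71 over the 8 arrays, with a difference of 0.005 and a 95% interval from -0.23 to 0.24. The Pcna cluster on chromosome 2, where the gene lies, and a cluster annotated to chromosome 19 differed by 0.005 and 0.0075.

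Mitosis genes were dim on every array: the highest value of any of them, Aurkb on HFD 2, was 6.42, under the background level of 6.46. Mki67, the common marker of cycling cells, read 5.66, 5.49, 5.54 and 5.55 on the NCD arrays and 5.84, 5.39, 5.48 and 5.70 on the HFD arrays. HFD 1 was the highest and HFD 2 the lowest. The difference was 0.04 ± 0.12 (SE, adjusted p = 0.967). Top2a, the topoisomerase that untangles replicated chromosomes, read 5.44, 5.63, 6.14 and 5.13 on the NCD arrays and 5.87, 5.23, 5.74 and 5.57 on the HFD arrays. NCD 3 and NCD 4 bounded all other arrays, and the range of 1.01 was the widest of the 34 genes. The difference was 0.02 ± 0.19 (SE, adjusted p = 0.992).

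Ccnb1, the B cyclin that activates Cdk1, read 5.75, 5.38, 5.71 and 5.99 on the NCD arrays and 6.20, 5.63, 5.88 and 6.10 on the HFD arrays. HFD 1 and HFD 4 exceeded all NCD arrays and the others overlapped. The difference was 0.245 ± 0.15 (SE, adjusted p = 0.793), and it was 0.14 without NCD 2 and 0.16 without HFD 1. This brightest cluster is annotated to chromosome 7, from 49361266 to 49362555, whereas the RefSeq gene lies on chromosome 13. It was the only one of the 34 whose chosen cluster was on another chromosome than the RefSeq gene. The chromosome 13 cluster had a difference of 0.26 ± 0.14 (SE) with an adjusted p of 0.756 among all clusters. Another, on chromosome 4, had one of 0.185 ± 0.12 (SE) with an adjusted p of 0.812. Clusters that share a symbol may share probe sequence, so they are not separate support.

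Bub1, a kinase of the spindle checkpoint, read 4.66, 4.08, 4.40 and 4.66 on the NCD arrays and 4.86, 4.41, 4.58 and 4.96 on the HFD arrays. HFD 1 and HFD 4 were again the highest and NCD 2 the lowest. The difference was 0.25 ± 0.15 (SE, adjusted p = 0.791), and it was 0.13 without NCD 2 and 0.17 without HFD 4. Plk1, a kinase of mitotic entry, read 5.49, 5.0, 5.39 and 5.77 on the NCD arrays and 5.93, 5.26, 5.68 and 5.14 on the HFD arrays. The groups overlapped almost fully, with a difference of 0.09 ± 0.18 (SE, adjusted p = 0.945). Aurkb, the kinase of the chromosomal passenger complex, read 6.03, 6.16, 6.12 and 6.09 on the NCD arrays and 6.15, 6.42, 6.02 and 5.55 on the HFD arrays. The HFD arrays held both its highest and its lowest value, on either side of the NCD arrays. The difference was -0.07 ± 0.15 (SE, adjusted p = 0.957). The remaining mitosis genes were Ccna2, Ccnb2, Cdk1, Bub1b, Aurka and Birc5, with differences from -0.14 (Birc5) to 0.16 (Cdk1). Over all 12 mitosis genes the median difference was 0.07, and 8 (66.7%) had a higher mean in HFD, against 46.7% of all genes. Among the 66 further mitosis genes described below, 33 (50%) had a higher mean in HFD.

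The median size of the difference between diets over the 34 genes was 0.114, and the median standard deviation within groups was 0.195. NCD 3 held the highest of the 8 values for 11 of the 34 genes, or 32.4%, against 22.6% of all genes; a tie, which occurred for 1 gene, was given to the first array. HFD 4 followed with 7 genes (20.6%, against 9.23% of all genes) and HFD 1 with 6 (17.6%, against 11.7%). NCD 2 held the lowest value for 10 (29.4%, against 13.2% of all genes). NCD 3 held the lowest value for 3 of the 34 (8.82%), against 18.5% of all genes. The mean over the 34 genes was 6.45 on NCD 3, from 6.29 to 6.31 on the other NCD arrays and from 6.335 to 6.41 on the HFD arrays. NCD 3 also had the widest spread over clusters of all arrays (SD 1.82, against 1.69 to 1.79), the lowest array weight in limma (0.524, against 0.919 to 1.39), and the highest array means of the brown adipocyte (10.09), macrophage (7.06) and erythroid (7.66) marker lists. The part of these differences in the result was not tested. With NCD 3 left out, 0 of the 34 genes passed and the median difference was 0.09.

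**Figure D4:**
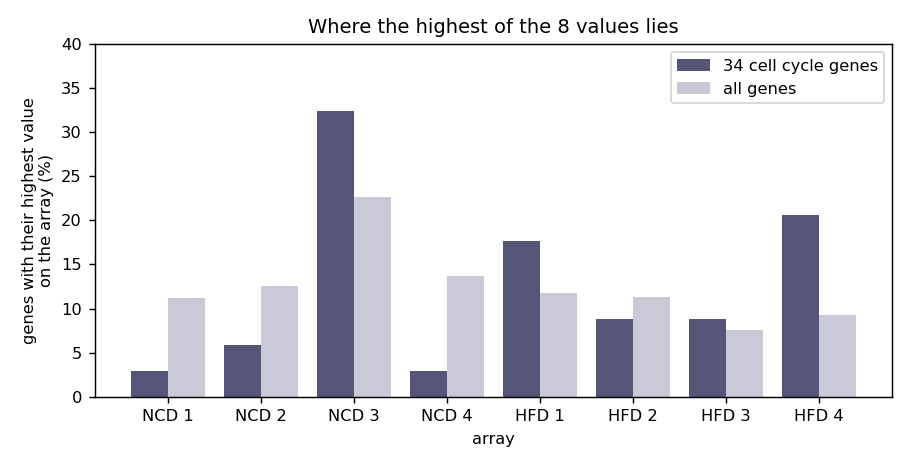
Share of genes whose highest value of the 8 lies on a given array (vertical axis, percent), for the 34 cell cycle genes (dark bars) and all genes (light bars), by array (horizontal axis). NCD 3 holds the highest value for 32.4% of the 34 genes and 22.6% of all genes, and HFD 4 for 20.6% and 9.23%.

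The mitosis genes were about as weakly correlated over the arrays as other dim genes. After each group's mean was removed, the median Pearson correlation over the 66 pairs of mitosis genes was 0.06, and pairs of all genes at or under the background level had a median of 0.07. These are descriptions over 8 arrays, and all genes on an array share its depth of signal, RNA quality and tissue makeup. Over the 36 pairs of replication genes the median was 0.08, near the 0.07 of dim pairs. Of these 9 genes 7 were at or under the background level. The median was 0.006 for pairs of all genes and 0.29 for pairs of all genes above the background level. The standard deviation within groups had a median of 0.253 for mitosis genes and 0.178 over all genes.

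The promoters of the roles differed in the letters they held. RefSeq windows of 300 bases, from 250 before to 50 after each annotated start in assembly GRCm38.p6, were given for 27 of the 34 genes, 31 windows in all. Each was searched on both strands for CCAAT, the NF-Y box, for TTTGAA, the form of the cell cycle homology region that the DREAM and MuvB complexes bind, and for letters that E2F factors are known to bind. The E2F search took TTCCCGC as its first form. It also took the related form TTCGCGC. The other forms searched were TTGCCGC and, with a different centre, TTGGCGC. On the reverse strand the E2F letters can overlap the NF-Y box or each other. The NF-Y letters CCAAT stood in 9 of 10 mitosis windows and 9 of 9 replication windows, against 37.4% of all 32851 windows. TTTGAA stood in 7 of 10 mitosis windows and 1 of 9 replication windows, against 17.9% of all windows, and each of those 7 mitosis windows also held CCAAT, a pairing found in 6.95% of all windows. E2F letters stood in 7 of 9 replication windows and 3 of 10 mitosis windows, against 9.57% of all windows. Of the 9 windows of the D cyclin group and the inhibitors, 0 held TTTGAA. A match is a description of the letters and not evidence of binding. Ccnd1, Ccnd2, Ccne2, Cdkn1c, Mcm4, Ccna2 and Aurkb had no window in the table used.

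Windows of 4 genes are shown, each the 250 bases before the start, 5′ to 3′ on the strand of the gene, with the searched letters in capitals. Mki67 and Cdk1 are mitosis genes with CCAAT (or ATTGG, its reverse), TTTGAA and E2F letters, Mcm5 is a replication gene with overlapping E2F letters, and Cdkn1b is the gene of smallest p, with CCAAT alone. They lie at chr7:135716380-135716629 on the minus strand, chr10:69352913-69353162 on the minus strand, chr8:75109259-75109508 on the plus strand and chr6:134920151-134920400 on the plus strand of GRCm38.p6.
Mki67: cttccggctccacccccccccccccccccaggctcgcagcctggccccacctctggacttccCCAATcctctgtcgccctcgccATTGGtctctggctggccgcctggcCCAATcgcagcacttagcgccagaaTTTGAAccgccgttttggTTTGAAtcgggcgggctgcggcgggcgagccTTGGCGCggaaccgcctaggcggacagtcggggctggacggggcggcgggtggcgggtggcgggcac
Cdk1: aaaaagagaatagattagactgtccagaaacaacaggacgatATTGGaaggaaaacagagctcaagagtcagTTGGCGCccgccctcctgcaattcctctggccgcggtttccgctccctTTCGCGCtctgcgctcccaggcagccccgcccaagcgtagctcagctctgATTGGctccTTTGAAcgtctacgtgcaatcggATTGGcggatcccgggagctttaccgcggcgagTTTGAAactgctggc
Mcm5: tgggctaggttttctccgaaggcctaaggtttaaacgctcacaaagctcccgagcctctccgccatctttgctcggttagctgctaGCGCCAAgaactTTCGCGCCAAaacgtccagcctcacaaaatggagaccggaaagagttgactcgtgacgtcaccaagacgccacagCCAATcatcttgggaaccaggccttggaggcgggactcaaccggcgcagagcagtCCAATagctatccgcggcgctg
Cdkn1b: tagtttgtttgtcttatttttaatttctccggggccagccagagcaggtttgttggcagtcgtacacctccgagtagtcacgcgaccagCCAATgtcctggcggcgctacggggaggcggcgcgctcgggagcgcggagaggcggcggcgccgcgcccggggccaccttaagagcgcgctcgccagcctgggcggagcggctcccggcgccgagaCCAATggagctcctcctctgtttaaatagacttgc

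In Cdk1 the TTTGAA letters begin at positions -71 and -15 from the start, each downstream of an ATTGG, and in Mki67 at -116 and -98. Cdk1 read 5.36 to 5.70 on the NCD arrays and 5.45 to 5.91 on the HFD arrays, a difference of 0.16 ± 0.13 (SE, adjusted p = 0.845). Mcm5, whose E2F letters begin at -164, -152 and -149, read 5.30 to 5.67 on the NCD arrays and 5.28 to 5.70 on the HFD arrays. Both genes lay under the background level on every array.

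Other genes of the cycle were examined in lists taken from general knowledge. Of 40 further replication genes 0 passed in either direction, 2 had an unadjusted p under 0.05, and the median difference was 0.015. Of 66 further mitosis genes 0 passed, 2 had an unadjusted p under 0.05, and the median was -0.00125. Of 20 genes of the retinoblastoma, E2F and DREAM group 0 passed, 3 had an unadjusted p under 0.05, all lower in HFD, and the median was -0.05. These counts stand beside the 0.142% and 7.24% of all genes given above, and 34 of the 40 replication genes and 60 of the 66 mitosis genes were at or under the background level.

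Named from these lists by smallest p, Cenpk, a kinetochore subunit, differed by -0.45 ± 0.17 (SE, adjusted p = 0.566) and Dlgap5, a spindle protein, by 0.255 ± 0.12 (SE, adjusted p = 0.673), both at means under the background level. Lin37, a subunit of the DREAM complex, read 6.56 to 6.85 on the NCD arrays and 6.13 to 6.54 on the HFD arrays. Its groups did not overlap, and the difference was -0.31 ± 0.12 (SE, adjusted p = 0.594). Rbbp4, a histone-binding protein of the same complex, differed by -0.26 ± 0.11 (SE, adjusted p = 0.653). Uhrf1, which keeps DNA methylation through replication, differed by 0.355 ± 0.16 (SE, adjusted p = 0.670) at a mean under the background level. Tk1, a thymidine kinase, differed by 0.24 ± 0.11 (SE, adjusted p = 0.670) on a cluster of 165 bases annotated to chromosome 8. The RefSeq gene lies on chromosome 11, where another cluster had a difference of 0.08 ± 0.20 (SE) with an adjusted p of 0.958 among all clusters.

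Regulators outside the core machinery showed the largest differences among the cell cycle lists, though 0 of 29 passed. In this list 5 genes, or 17.2%, had an unadjusted p under 0.05, against 7.24% of all genes and 10.8% of those above the background level, and 2 of the 5 were higher in HFD. Myc, a transcription factor that promotes growth and entry into the cycle, read 8.03, 7.44, 7.77 and 7.35 on the NCD arrays and 8.35, 8.28, 8.23 and 8.06 on the HFD arrays. All HFD arrays lay above all NCD arrays, with HFD 4 just above NCD 1. The difference was 0.58 ± 0.15 (SE, unadjusted p = 0.00116, adjusted p = 0.215). Ccng2, an atypical cyclin linked to cell cycle arrest, read 7.44, 7.81, 8.24 and 7.86 on the NCD arrays and 7.28, 7.04, 7.40 and 7.35 on the HFD arrays. All HFD arrays lay below all NCD arrays. The difference was -0.57 ± 0.15 (SE, unadjusted p = 0.00196, adjusted p = 0.277). Under the alternatives run the adjusted p of Myc reached 0.063 (without NCD 1) at the lowest and 0.647 (the methods' t-test) at the highest.

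The p53 list held 23 measured genes, Trp53 and targets that this tumour suppressor switches on, for example to halt the cycle or repair DNA. Of these 0 passed, against 0.142% of all genes. At an unadjusted p under 0.05 there were 2 (8.7%), against 7.24% of all genes and 10.8% of those above the background level. The median difference was -0.07, against -0.01 over all genes and -0.055 over those above the background level. Phlda3, a p53-induced inhibitor of Akt, read 8.38, 8.92, 8.61 and 8.57 on the NCD arrays and 8.04, 8.29, 7.90 and 8.15 on the HFD arrays. All HFD arrays lay below all NCD arrays. The difference was -0.525 ± 0.13 (SE, unadjusted p = 0.00127, adjusted p = 0.220). Rrm2b, the p53-induced subunit of ribonucleotide reductase, differed by -0.35 ± 0.13 (SE, adjusted p = 0.551). The related p53 target Cdkn1a, given above, differed by -0.02.

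**Figure D5:**
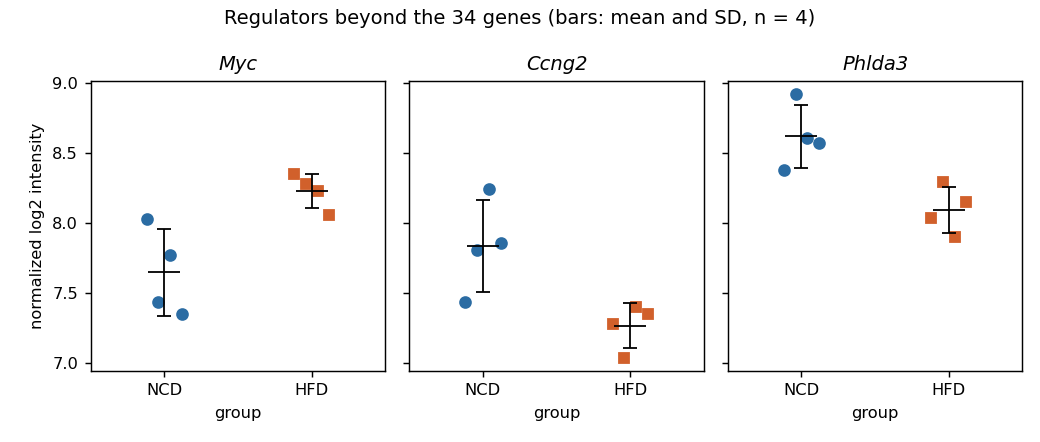
Normalized log2 intensity (vertical axis) of Myc, Ccng2 and Phlda3 on the 4 NCD and 4 HFD arrays (horizontal axis). Points are single arrays and bars the mean and SD; the groups of each gene do not overlap, and none passed after adjustment over all genes.

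In the authors' deposited table, whose p-values are rounded to the second decimal, 3 of the 34 genes had a p of at most 0.05: Cdkn1b (0.02), Ccnd2 (0.04) and Cdkn1c (0.04). Over all genes 6.35% did in the authors' deposited table. The folds there were 1.25 for Cdkn1b, 1.17 for Ccnd2 and 1.16 for Cdkn1c. For Cdkn1b and Ccnd2 these values belong to the short clusters. The longer clusters differed by -0.02 and -0.025 in limma.

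Markers of the cell types that brown fat can hold were measured beside these genes, and their part in the values above was not tested. Skeletal muscle markers, 10 of 10 measured, had array means of 9.08 on NCD 1 and 9.72 on HFD 3 and 5.23 to 5.77 on the other arrays. Without those arrays 0 of the 34 genes passed. Lymphocyte markers averaged 5.43 to 5.62 in NCD and 5.56 to 5.74 in HFD, and 9 of 10 were at or under the background level. Macrophage markers (6.56 to 7.06 in NCD and 6.71 to 7.05 in HFD), endothelial markers (7.91 to 8.14 and 8.03 to 8.33) and progenitor and fibroblast markers (7.05 to 7.41 and 7.22 to 7.49) overlapped between the diets. Brown adipocyte markers, of which 1 of 10 passed, ran from 9.771 to 10.09 in NCD and from 9.63 to 9.766 in HFD. The list mean was 9.90 in NCD and 9.70 in HFD, a difference of -0.20. The ranges did not overlap, though they all but met. The brightest of these markers, Ucp1 and Fabp4, differed by only -0.05 and 0.05 (adjusted p = 0.945 for each in limma). The lower list mean in HFD thus came from other markers of the list. None of the macrophage, endothelial or progenitor markers passed the test.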

How the data were processed

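Brown adipose tissue RNA was measured on 8 arrays, 4 NCD and 4 HFD, grouped by sample title. The authors log transformed and quantile normalized the values with Affymetrix Power Tools, per the series design text, so the deposited unit is log2 intensity; the sources used here do not give the summarization, build or annotation. The authors deposited a p-value and a signed fold (a score, negative when lower in HFD) per cluster. The second deposited table held identical log2 values.

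Of several clusters of a symbol the brightest was used, which gave 21759 genes from 25254 clusters. Differences are HFD minus NCD from limma 3.58.1 in R 4.3.3 (lmFit, eBayes). Tests were two-sided, and p-values were adjusted by Benjamini-Hochberg across every gene. The steps were tested on simulated data. The number of arrays limits precision. Members and lists were chosen with earlier results of these data known. Values on every array are given for the 8 members of smallest p, the 4 of widest range (5 with a tie), and Mki67, Top2a, Ccnd1, Cdkn1a and Cdkn1c; from each other list the 2 genes of smallest p are named. Alternatives were a plain t-test with equal variances, a variance trend, weights per array, a replicate block and other scalings. A filter on dim genes, other cluster choices and omitted arrays were also used. The study's methods name a t-test.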

Additional observations from a re-analysis of the deposited data

Results flagged for a closer look

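Of 68 groups of 4 values (34 genes in each diet), 4 held an array far from the others by Dixon's criterion, which chance meets in about 1 group in 20. Ccnd2 stood at 9.48 on HFD 3, with the other HFD arrays from 9.30 to 9.31. Mcm5 stood at 5.30 on NCD 3, with the other NCD arrays from 5.64 to 5.67. Rrm1 stood at 6.71 on NCD 4, with the others from 7.22 to 7.31. Bub1b stood at 5.12 on HFD 3, with the others from 5.27 to 5.30.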

How the results depend on the processing

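Under all 19 alternatives 0 of the 34 genes passed, and the smallest adjusted p was 0.304 (Cdkn1b, dim genes left out); the 6 other lists also had 0 genes past. Counts at an unadjusted p under 0.05 are given with the share of all genes in the same setting. They were 4 (6.96%) by the equal-variance t-test, 3 (8.76%) after cyclic loess and 2 (7.87%) with equal median and spread. They were also 2 with dim genes left out (11.2%), with a variance trend and robust prior (7.58%) and without NCD 2 and NCD 3 (6.9%). They were 0 (7.17%) with the mean of clusters and 0 (7.25%) with the cluster of longest span, a choice added after seeing the data. Leaving out 1 array gave 0 (6.66%, without NCD 3) to 5 (8.98%, without NCD 4), with 3 without NCD 2 (5.4%) or HFD 2 (5.79%). Genes whose groups do not overlap numbered 3 (5.61% of all genes) after cyclic loess, 2 (4.65%) with equal median and spread, 2 (3.84%) with the mean of clusters, 2 (12.3%) without NCD 1 and HFD 3 and 4 (15.2%) without NCD 2 and NCD 3. Leaving out 1 array gave 1 to 4, with 4 (5.76%) without NCD 2, 3 (6.04%) without HFD 1, 2 (8.31%) without NCD 1 and 2 (7.52%) without NCD 4. Fewer arrays make groups without overlap more common. Same-numbered arrays' deviations correlated at -0.165 to 0.00249 over genes, and those of arrays with different numbers at -0.379 to 0.324. With so few arrays, of unlike tissue makeup, these values cannot show whether the numbers pair samples. With the replicate block 1 gene of the 34 had an unadjusted p under 0.05 and 36 of all genes passed, against 31 without it. List medians moved with dim genes left out for mitosis (-0.045) and other regulators (-0.075), and without NCD 2 and NCD 3 for other regulators (0.065), p53 targets (0.025) and the retinoblastoma group (0.0275); the last was 0.0182 after cyclic loess and 0.0152 with equal median and spread. The filter on dim genes left out 60 of the 66 mitosis genes and 13 of the 29 other regulators, so its medians cover fewer genes. The cause of the other shifts was not tested.

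Differences changed sign under at least 1 alternative in 19 of the 34 genes, Cdkn1b and Ccnd2 with the cluster of longest span among them. Without NCD 2 and NCD 3 these were Aurka (-0.0375), Birc5 (0.065), Ccna2 (0.1275), Ccnd1 (0.0775), Cdkn1a (0.055), Mcm4 (-0.0025), Mcm6 (0.0575), Mki67 (-0.0025), Plk1 (-0.1275) and Rrm1 (0.015). Without NCD 1 and HFD 3 they were Cdk2 (-0.16), Mcm3 (-0.07), Pcna (-0.02) and Top2a (-0.0767). Cdkn1a stood at 0.0201 with array weights, 0.0597 after cyclic loess and 0.0453 with equal median and spread, and after cyclic loess Mcm3 stood at -0.000411 and Top2a at -0.00745. With the cluster of longest span Cdkn1b stood at -0.02 and Ccnd2 at -0.025. Leaving out 1 array gave ranges of -0.00583 to 0.171 for Aurka, -0.193 to 0.0967 for Aurkb, -0.1975 to 0.0758 for Ccna2, -0.0867 to 0.0933 for Cdk2, -0.143 to 0.15 for Cdkn1a, -0.00417 to 0.162 for Mcm2, -0.0325 to 0.0875 for Mcm3, -0.0458 to 0.121 for Mcm4, -0.2125 to 0.0708 for Mcm6, -0.0075 to 0.153 for Mcm7, -0.0367 to 0.113 for Mki67, -0.0408 to 0.0558 for Pcna, -0.0525 to 0.211 for Plk1 and -0.134 to 0.2025 for Top2a. Genes at the background level limit what these arrays can show. With the 90th percentile of olfactory receptor genes in place of the 95th, 19 of the 34 genes were at or under it.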

Other observations

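The 62 histone genes were all symbols that start with Hist1h, Hist2h, Hist3h or Hist4h. Most belong to the replication-dependent class, which packages newly made DNA. Many are near-identical copies, so their probes may be shared and their values are uncertain one by one. In limma 0 of the 62 passed and 0 had an unadjusted p under 0.05, with a median difference of -0.04. A lower mean in HFD was seen for 42, or 67.7%, against 52.5% of all genes and 63.7% of those above the background level. The smallest p was that of Hist1h2ak, with an NCD mean of 4.45 ± 0.16 (SD, n = 4) and an HFD mean of 4.21 ± 0.09 (SD, n = 4) (adjusted p = 0.694). Hist1h4d differed by -0.225 ± 0.13 (SE, adjusted p = 0.770).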
